A study of Mus musculus with 6 samples.

Results

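Expression of 10 TNF receptor superfamily genes was examined in unstimulated mouse bone marrow-derived dendritic cells (BMDCs): Cd40, Ltbr, Tnfrsf11a, Tnfrsf12a, Tnfrsf1a, Tnfrsf1b, Tnfrsf4, Tnfrsf9, Tnfrsf14 and Fas. The genes were chosen by name as receptors of this family, including those that engage noncanonical NF-κB signaling, and were matched by Ensembl ID, so that they make up 10 of the 56748 IDs in the count files. All 10 passed the filter on low counts, among 21849 genes tested. Polyadenylated RNA was sequenced from 3 libraries of WT C57BL/6 BMDCs and 3 libraries of Nfkb2-/- BMDCs. The Nfkb2-/- mice carried a global knockout, so that it held in every cell of the culture and not in the dendritic cells alone. Their strain background, and the age and sex of the donor mice, are not given in the sources used here. Cells of both genotypes spent 9 days in culture and received no stimulus. According to the labels, the medium held GM-CSF at 20 ng/mL throughout, and IL-4 at 10 ng/mL was added for the last 4 days. Non-adherent cells were collected. The paper describes the 3 libraries of a genotype as independent biological replicates. Whether they came from separate animals or separate cultures is not stated, so p-values measure the spread between these libraries.

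TNF receptor superfamily proteins are cell surface receptors for ligands that form trimers. Receptors such as CD40, the lymphotoxin β receptor and RANK draw TRAF adaptors to the membrane, and in the noncanonical arm the loss of TRAF3 stabilizes the kinase NIK, which drives processing of the Nfkb2 product p100 into p52. TNFR1 and Fas instead carry a death domain and can also start caspase cascades. In dendritic cells the family is known for licensing by T cells through CD40, for survival signals through RANK, and for exchange of costimulatory signals through OX40, 4-1BB and HVEM.

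Levels are given as CPM, the reads of a gene scaled to a common library size with edgeR's TMM method. Total counts were between 29863927 and 55623068 per library, and 1 count was worth 0.0187 to 0.0344 CPM. The targeted gene, Nfkb2, stood at 215, 154 and 355 CPM in WT against 44.8, 32.3 and 32.6 CPM in Nfkb2-/- libraries, where reads of it thus remained. It was called lower by edgeR (log2 fold change -2.72, standard error 0.33, adjusted p = 0.0307). It passed in 9 of 14 alternative fits, and missed with the replicate number as a block (edgeR adjusted p = 0.0594), without WT replicate 1 (0.128) and without any one Nfkb2-/- replicate (0.0876 to 0.163). A few libraries stood apart. WT replicate 3 had a summed level of 10 macrophage and monocyte markers of 132.8 CPM, against 590.2 to 954.3 CPM in the other 5 libraries, and Nfkb2-/- replicate 1 had counts on 47952 genes against 27692 to 33841 in the others. WT replicate 2 and Nfkb2-/- replicate 2 had totals that differed by 15 counts, although the values of single genes differed. Of the 10 dendritic cell markers, such as Cd74 and Flt3, none was at 0 in every library, and their summed level was 4947 to 8333 CPM in WT and 6522 to 7789 CPM in Nfkb2-/- BMDCs. Itgax, which encodes CD11c, measured 160.4, 277 and 123 CPM in WT and 745, 769 and 716 CPM in Nfkb2-/- BMDCs and was called higher by edgeR (log2 fold change 1.99, adjusted p = 0.0414). Of these 10 markers, 6 had a log2 fold change above 0 and 4 below, and Itgax was the only one called by edgeR. DESeq2 called Itgax and Dpp4 higher and 0 lower, where it called 4.33% and 4.32% of all genes, and edgeR called 1.14% of them. Without overlap, 3 were higher (Itgax, with Dpp4 and Ciita named after their values were seen) and 1 lower (Zbtb46), where 12.7% and 12% of all genes showed this. Zbtb46, a transcription factor of conventional dendritic cells, measured 168, 151 and 218 CPM in WT and 115, 136 and 119 CPM in Nfkb2-/- BMDCs, lower without overlap and not called, and is named after its values were seen (log2 fold change -0.54, edgeR adjusted p = 0.192). In bulk RNA, fewer cells of a type and less RNA per cell cannot be told apart.

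To compare levels between receptors, the CPM values were divided by exonic length and are then given as CPM per kb. In WT BMDCs, 4 receptors stood above the rest on this scale. Tnfrsf1b, the gene for TNFR2, averaged 131 ± 30.8 CPM per kb (SD, n = 3). Fas averaged 83.8 ± 46.1 CPM per kb (SD, n = 3), Tnfrsf11a 64.4 ± 19.8 CPM per kb (SD, n = 3) and Tnfrsf9 56.7 ± 18.4 CPM per kb (SD, n = 3). The WT libraries of each of these overlapped those of its neighbour in the order, so the order within the 4 is not resolved. Tnfrsf1a, Ltbr, Cd40 and Tnfrsf4 followed, with means of 13.7, 10.8, 10.4 and 7.01 CPM per kb, and again each overlapped the next. Tnfrsf14 averaged 2.94 CPM per kb and Tnfrsf12a 0.427 CPM per kb, and neither overlapped the gene above it. Against the level per kb of all genes tested, Tnfrsf1b lay between the percentiles 97.3 and 99.3 over the 6 libraries, and Tnfrsf12a between 26.0 and 33.3.

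In Nfkb2-/- BMDCs, the order was headed by a different receptor and its steps were better resolved. Tnfrsf9, the gene for 4-1BB, stood at 113, 106 and 95.5 CPM per kb in the Nfkb2-/- libraries, above every other receptor in all 3, whereas in the WT libraries it stood at 41.6, 51.2 and 77.2 CPM per kb and held rank 4 by its mean. Tnfrsf1b averaged 60.2 ± 1.97 CPM per kb (SD, n = 3), Tnfrsf11a 44.2 ± 0.292 CPM per kb (SD, n = 3) and Fas 30.8 ± 0.743 CPM per kb (SD, n = 3), with no overlap between neighbours. Only the pairs Ltbr and Tnfrsf4, and Tnfrsf4 and Cd40, overlapped in the Nfkb2-/- libraries. As a share of the summed level per kb of the 10 receptors, Tnfrsf9 made up 10.7, 17.6 and 16.7% in the WT libraries and 39.1, 37.7 and 35.01% in the Nfkb2-/- libraries. For Tnfrsf1b these shares were 42.2, 35.9 and 26.7% in WT and 20.2, 21.98 and 22.2% in Nfkb2-/- libraries, and for Fas the means were 20.9% ± 7.32 and 10.95% ± 0.0438 (SD, n = 3). The shares of Tnfrsf9 were higher in every Nfkb2-/- library than in any WT library, and those of Tnfrsf1b and Fas were lower. The shares sum to a fixed total within a library and were not tested.

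**Figure D1:**
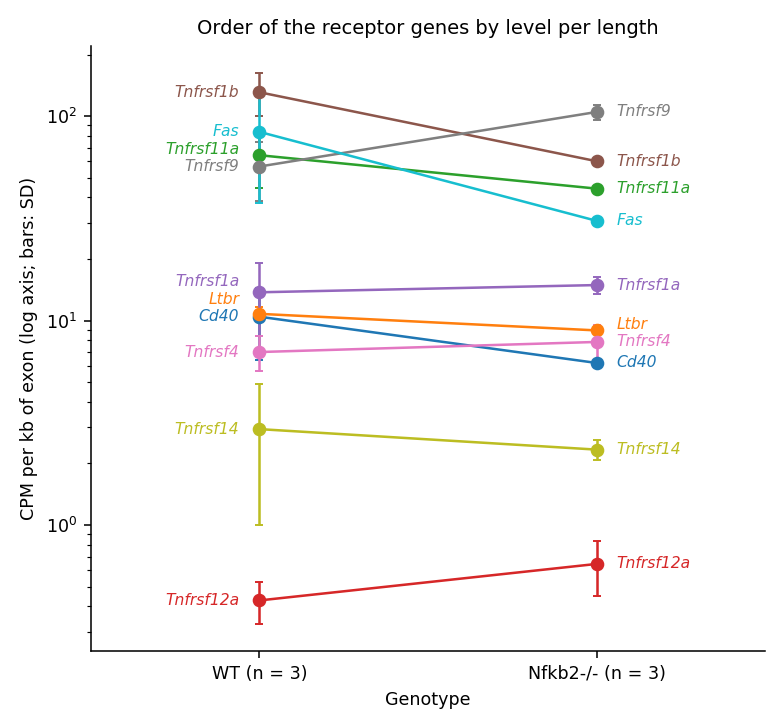
Mean level of each receptor gene in WT and Nfkb2-/- BMDCs in CPM per kb of exon on a log axis, joined by a line per gene, with bars for the SD over 3 libraries per genotype. Tnfrsf9 goes from a mean of 56.7 to 104.8 CPM per kb, while Tnfrsf1b goes from 130.9 to 60.2 and Fas from 83.8 to 30.8.

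The genotypes were compared for each gene with the quasi-likelihood test of edgeR, fitted to all 21849 genes, and a gene was called when its Benjamini-Hochberg adjusted p was under 0.05 and its fold change over 1.2. No receptor of the 10 was called, where 1.14% of all genes were. With unadjusted edgeR p-values under 0.05 there were 5 (Tnfrsf1b, Fas, Tnfrsf9, Cd40 and Tnfrsf11a), where 17.1% of all genes reached this. DESeq2, the tool of the study's methods, called 3 of the 10, with Tnfrsf9 higher and Tnfrsf1b and Fas lower in Nfkb2-/- BMDCs, where it called 8.65% of all genes. With limma voom, only Tnfrsf1b was called among the 10. In 5 of the 10 (Cd40, Ltbr, Tnfrsf11a, Tnfrsf1b and Fas) every Nfkb2-/- library was below every WT library, where 12% of all genes showed this, and in Tnfrsf9 every Nfkb2-/- library was above, where 12.7% of all genes showed this (24.7% in either direction). Under total counts without TMM, only Tnfrsf1b and Fas kept the separation downward, where 8.77% of all genes showed it. The median log2 fold change (Nfkb2-/- over WT) was -0.30 over the 10 receptors, with 6 below 0 and 4 above, against a median of 0.08 over all genes tested.

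**Figure D2:**
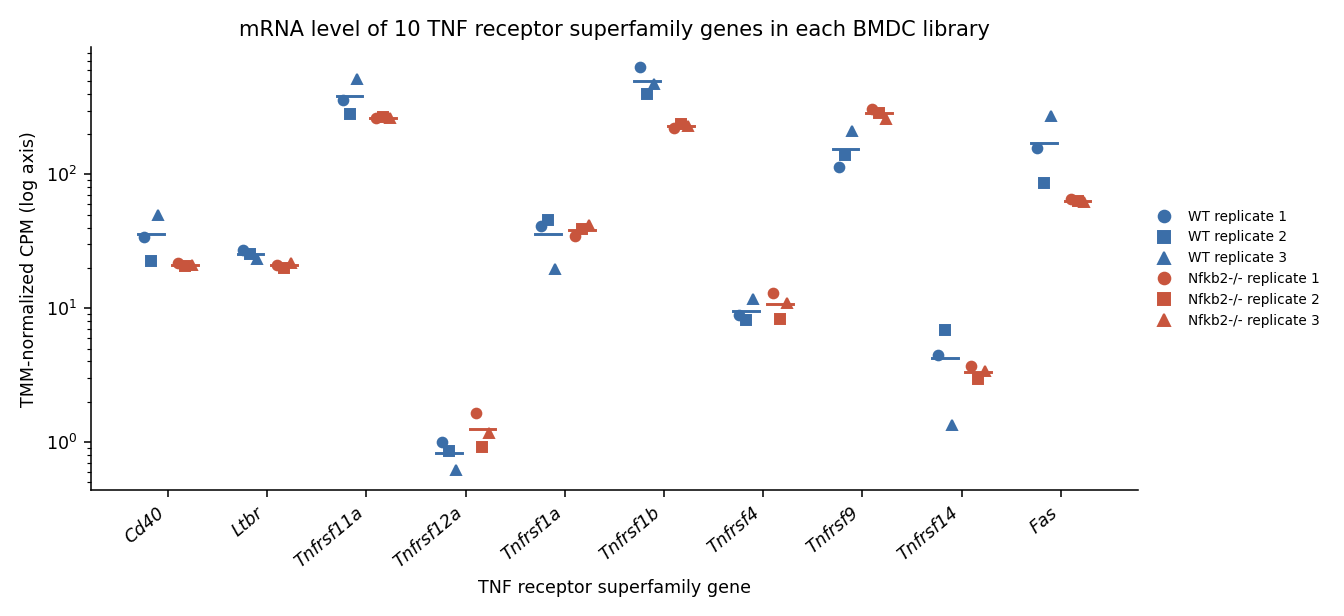
TMM-normalized CPM of each receptor gene in every library on a log axis, with the mean of 3 libraries as a line, WT in blue and Nfkb2-/- in red, and 1 symbol per replicate number. The WT points of Fas run from 86.1 to 274 CPM, above the Nfkb2-/- points at 61.9 to 64.9 CPM, and in Tnfrsf9 the Nfkb2-/- points lie above the WT points.

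**Figure D3:**
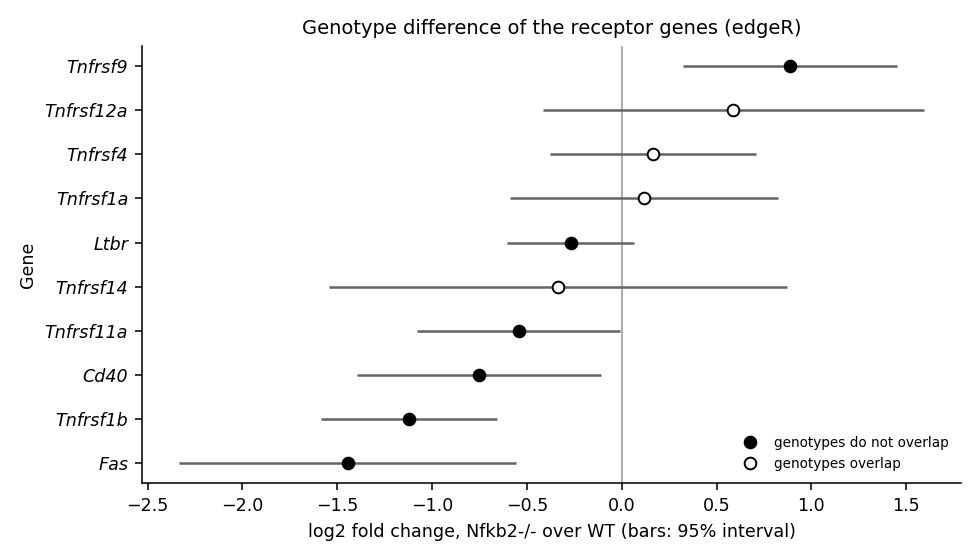
Log2 fold change (Nfkb2-/- over WT) of each receptor gene from edgeR with its 95% interval, filled where the libraries of the genotypes do not overlap. The values run from -1.45 for Fas to 0.89 for Tnfrsf9, and no gene passed an adjusted p of 0.05.

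The start regions of the 3 genes that DESeq2 called are shown because they are the receptors whose mRNA levels differed most between the genotypes relative to their spread. They are the RefSeq promoters of GRCm38.p6, from 250 bases before to 50 bases after the start site, written 5′ to 3′ along the gene. Capitals mark matches to the NF-κB consensus, searched on both strands. Tnfrsf1b lies on the - strand at chr4:145246821-145247120, Fas on the + strand at chr19:34290409-34290708, and the Tnfrsf9 window, the second of 2 start sites listed for this gene, on the + strand at chr4:150927749-150928048. The window of the first Tnfrsf9 start site, at chr4:150919905-150920204, held no match to the consensus and is not printed. Which of the 2 start sites these cells use was not tested.
Tnfrsf9: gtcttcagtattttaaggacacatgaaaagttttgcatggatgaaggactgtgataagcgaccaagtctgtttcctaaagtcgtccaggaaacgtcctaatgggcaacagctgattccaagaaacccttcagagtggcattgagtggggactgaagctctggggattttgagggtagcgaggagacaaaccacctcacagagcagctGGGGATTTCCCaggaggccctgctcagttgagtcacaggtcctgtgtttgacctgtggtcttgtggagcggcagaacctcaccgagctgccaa
Tnfrsf1b: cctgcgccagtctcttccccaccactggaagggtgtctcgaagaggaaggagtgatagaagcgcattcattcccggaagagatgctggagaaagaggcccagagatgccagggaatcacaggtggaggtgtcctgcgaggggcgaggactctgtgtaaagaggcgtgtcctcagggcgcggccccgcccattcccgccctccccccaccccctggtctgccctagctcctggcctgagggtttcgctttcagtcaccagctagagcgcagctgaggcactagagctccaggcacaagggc
Fas: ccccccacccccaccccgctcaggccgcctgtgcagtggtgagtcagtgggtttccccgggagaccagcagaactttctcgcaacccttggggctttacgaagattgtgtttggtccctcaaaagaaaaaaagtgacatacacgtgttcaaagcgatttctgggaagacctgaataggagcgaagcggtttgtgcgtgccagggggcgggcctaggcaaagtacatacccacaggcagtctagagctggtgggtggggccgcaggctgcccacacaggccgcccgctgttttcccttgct
Of the 10 promoters of 9 receptors (Cd40 had no entry), the Tnfrsf9 window above was the only one with a match to this consensus, in a run that begins 43 bases before the start site and holds overlapping matches on both strands, where 4.51% of 32851 promoters held 1. A looser pattern that also covers the consensus, GGG and CC with 5 bases of any kind between them, was found in 8 of the 10, where 50.8% of all promoters held it, and the GC box core GGGCGG in 6 of the 10, where 35.7% held it. The TATA box letters TATAAA were found in none of the 10, where 13.6% of all promoters held them. These are matches of letters in a window and no measure of binding.

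Cd40, Tnfrsf11a and Ltbr, 3 of the receptors that engage noncanonical NF-κB signaling, had lower mRNA levels in every Nfkb2-/- library than in any WT library. Of all genes, 12% showed this. None of the differences passed the test, and under total counts without TMM all 3 receptors lost the separation. Cd40 (ENSMUSG00000017652, GRCm38 chromosome 2, 165055627 to 165072948, + strand) encodes the receptor through which CD40 ligand on T cells licenses dendritic cells. It measured 34.2, 22.7 and 49.8 CPM in WT against 21.7, 20.6 and 21.1 CPM in Nfkb2-/- libraries. WT replicate 2, at 22.7 CPM, lay close to the Nfkb2-/- values, and WT replicate 3 was the highest. In edgeR, the log2 fold change of Cd40 was -0.75 (standard error 0.27, 95% interval -1.39 to -0.11, edgeR adjusted p = 0.223). Without WT replicate 2 it was -0.99 with an edgeR adjusted p of 0.0426, and without WT replicate 3 it was -0.43 with an edgeR adjusted p of 0.367, over a range of 0.0426 to 0.459 in the 14 alternatives.

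Tnfrsf11a (ENSMUSG00000026321, GRCm38 chromosome 1, 105780718 to 105847981, + strand) encodes RANK, the receptor of RANKL. Its levels were 358, 283 and 515 CPM in WT and 264, 266 and 263 CPM in Nfkb2-/- BMDCs. The Nfkb2-/- libraries lay within 1.01-fold of each other, whereas the WT libraries differed by up to 1.82-fold, with WT replicate 2 closest to the knockout. For Tnfrsf11a the log2 fold change was -0.54 (standard error 0.23, 95% interval -1.08 to -0.01, edgeR adjusted p = 0.287), and without WT replicate 3 it was -0.28. Ltbr (ENSMUSG00000030339, GRCm38 chromosome 6, 125306571 to 125313885, - strand) encodes the receptor of lymphotoxin α1β2 and LIGHT and had the narrowest spread in WT of the 10 receptors. It measured 27.4, 25.3 and 23.4 CPM in WT and 21.2, 20.1 and 21.9 CPM in Nfkb2-/- BMDCs. The groups did not overlap, but the difference was small (log2 fold change -0.27, standard error 0.14, 95% interval -0.60 to 0.07, edgeR adjusted p = 0.397).

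Tnfrsf12a (ENSMUSG00000023905, GRCm38 chromosome 17, 23675445 to 23677468, - strand) encodes Fn14, the receptor of TWEAK, and had the lowest level of the 10. It was read at 18 to 62 counts per library, where counting error alone is 12.7% to 23.6% of the value. Its levels were 0.996, 0.861 and 0.619 CPM in WT and 1.65, 0.923 and 1.16 CPM in Nfkb2-/- BMDCs, with overlapping groups. Its log2 fold change was 0.59 (standard error 0.43, 95% interval -0.42 to 1.59, edgeR adjusted p = 0.529), and without Nfkb2-/- replicate 1 it was 0.32. The coefficient of variation among libraries was 23.1% in WT and 30% in Nfkb2-/- BMDCs.

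The genes for the receptors of TNF differed in how they compared between the genotypes. Tnfrsf1b (ENSMUSG00000028599, GRCm38 chromosome 4, 145213463 to 145246870, - strand), whose product TNFR2 lacks a death domain and signals through TRAF2, measured 629, 399 and 471 CPM in WT against 222, 237 and 231 CPM in Nfkb2-/- libraries. All WT libraries were well above all Nfkb2-/- libraries, and the lowest WT value belonged to replicate 2. The mean was 499.8 ± 117 CPM (SD, n = 3) in WT and 229.8 ± 7.50 CPM (SD, n = 3) in Nfkb2-/- BMDCs. The log2 fold change of Tnfrsf1b was -1.12 (standard error 0.20, 95% interval -1.58 to -0.66). The edgeR adjusted p was 0.0522, just outside the threshold. The gene passed in 6 of the 14 alternatives, including DESeq2 (adjusted p = 1.72e-05) and limma voom (adjusted p = 0.0352), and over all 14 the adjusted p ran from 1.72e-05 to 0.251. The log2 fold change with a library left out was between -1.26 and -0.92.

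Tnfrsf1a (ENSMUSG00000030341, GRCm38 chromosome 6, 125349362 to 125362484, + strand) encodes the death domain receptor TNFR1. Its levels were 41.4, 45.7 and 19.7 CPM in WT and 34.7, 39.2 and 42.04 CPM in Nfkb2-/- BMDCs. The groups overlapped, with WT replicate 3 below all other libraries. The log2 fold change was 0.12 (standard error 0.30, 95% interval -0.59 to 0.83, edgeR adjusted p = 0.876), and without WT replicate 3 its sign turned, to -0.17. Within a library, the ratio of Tnfrsf1b to Tnfrsf1a in CPM per kb does not depend on library size. This ratio was 10.3, 5.92 and 16.2 in the WT libraries and 4.34, 4.09 and 3.73 in the Nfkb2-/- libraries, with no overlap. The mean log2 ratio was lower in Nfkb2-/- BMDCs by a difference of -1.30 (two-sided exact permutation test, p = 0.1, the smallest that 3 libraries against 3 can give, and 0.2 after Benjamini-Hochberg adjustment over 2 ratios). Ltbr and Tnfrsf1a both lie on chromosome 6, 35477 bases apart, and no member shared exonic bases with another gene.

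Of the receptors known for costimulation, Tnfrsf9 had the only separation upward, and Tnfrsf4 and Tnfrsf14 overlapped between the genotypes. Tnfrsf9 (ENSMUSG00000028965, GRCm38 chromosome 4, 150914562 to 150946102, + strand) encodes 4-1BB, which signals through TRAF1 and TRAF2 and is known best from activated T cells. It measured 113, 139 and 210.2 CPM in WT against 306, 289 and 259.9 CPM in Nfkb2-/- libraries. The highest WT library was replicate 3, which was still below the lowest Nfkb2-/- library. The mean was 154 ± 50.2 CPM (SD, n = 3) in WT and 285 ± 23.5 CPM (SD, n = 3) in Nfkb2-/- BMDCs. The log2 fold change was 0.89 (standard error 0.24, 95% interval 0.32 to 1.45, edgeR adjusted p = 0.128). DESeq2 called it (adjusted p = 0.0185), and so did edgeR without WT replicate 3 (adjusted p = 0.0416), within a range of 0.0185 to 0.382 over the 14 alternatives. The summed level of 8 T and NK cell markers was 1.6 to 4.72 CPM in WT and 2.5 to 9.9 CPM in Nfkb2-/- libraries.

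Tnfrsf4 (ENSMUSG00000029075, GRCm38 chromosome 4, 156013843 to 156016612, + strand), the gene for OX40, measured 8.97, 8.12 and 11.6 CPM in WT and 12.9, 8.31 and 10.96 CPM in Nfkb2-/- BMDCs. The libraries of the genotypes were interleaved, and the log2 fold change was 0.17 (standard error 0.23, 95% interval -0.38 to 0.71, edgeR adjusted p = 0.755), with 0.0029 without Nfkb2-/- replicate 1 and 0.33 without WT replicate 3. Tnfrsf14 (ENSMUSG00000042333, GRCm38 chromosome 4, 154921933 to 154928563, - strand) encodes HVEM, which binds LIGHT and also BTLA and CD160. Its levels were 4.44, 6.92 and 1.34 CPM in WT and 3.69, 2.97 and 3.42 CPM in Nfkb2-/- BMDCs. The WT values enclosed the Nfkb2-/- values, and differed by up to 5.16-fold among themselves. The log2 fold change of -0.33 (standard error 0.51, 95% interval -1.54 to 0.87, edgeR adjusted p = 0.779) turned to 0.21 without WT replicate 2. The ratio of Tnfrsf14 to Ltbr in CPM per kb, which sets side by side the receptors that signal for LIGHT, was 0.265, 0.448 and 0.0938 in WT and 0.286, 0.242 and 0.255 in Nfkb2-/- libraries. The difference in mean log2 ratio was 0.22 (two-sided exact permutation test, p = 0.9, and 0.9 after Benjamini-Hochberg adjustment), and without WT replicate 3 it was -0.40.

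Fas (ENSMUSG00000024778, GRCm38 chromosome 19, 34290666 to 34327772, + strand), whose product is the death receptor of FasL, had the largest log2 fold change in size of the 10 receptors in edgeR. It measured 158, 86.1 and 274 CPM in WT against 64.9, 63.4 and 61.9 CPM in Nfkb2-/- libraries. The Nfkb2-/- values were nearly the same, whereas the WT values differed by 3.19-fold, and all WT values were higher. The mean was 173 ± 94.99 CPM (SD, n = 3) in WT and 63.4 ± 1.53 CPM (SD, n = 3) in Nfkb2-/- BMDCs. In edgeR, the log2 fold change of Fas was -1.45 (standard error 0.38, 95% interval -2.33 to -0.56, edgeR adjusted p = 0.121). DESeq2 called Fas lower (adjusted p = 0.00428), and so did edgeR without a filter (adjusted p = 3.41e-05) and without WT replicate 2 (adjusted p = 0.0161), within a range of 3.41e-05 to 0.345 over the 14 alternatives. With a library left out the log2 fold change was between -1.77 and -0.94, the latter without WT replicate 3. Fas lies on the same chromosome as the targeted Nfkb2, 11976548 bases from it.

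The spread among libraries was itself unequal between the genotypes. The coefficient of variation was larger in WT than in Nfkb2-/- BMDCs for 8 of the 10 receptors (80%), with Tnfrsf4 and Tnfrsf12a as the exceptions, where 60.6% of 10646 genes averaging 5 CPM or more showed this. Its median over the receptors was 31.6% in WT and 6.31% in Nfkb2-/- BMDCs, against 16.3% and 13% over those genes. Counting error was at most 6.3% of the value in every receptor but Tnfrsf12a and Tnfrsf14. In Cd40, Tnfrsf11a, Tnfrsf4 and Fas, WT replicate 3 was highest and replicate 2 lowest, an order that 30.8% of those genes shared. The summed level of 10 mature dendritic cell markers, including Ccr7, Cd83 and Fscn1, had the same order, with 13500, 10300 and 19800 CPM in WT replicates 1, 2 and 3, and stood at 12320, 12220 and 11580 CPM in the Nfkb2-/- libraries. Of these 10 markers, 4 had a log2 fold change above 0 and 6 below. Without overlap, 2 were higher in Nfkb2-/- BMDCs (Ccl17 and Cd86) and 2 lower (Cd83 and Fscn1), where 12.7% and 12% of all genes showed this. edgeR called only Ccl17, higher, and DESeq2 called Ccl17 higher and Cd83 and Fscn1 lower. Of all genes, edgeR called 1.14% and DESeq2 8.65%. Without Ccl17, an alternative chosen after its values were seen, the sums were 13340, 9939 and 19370 CPM in WT and 9931, 9748 and 9218 CPM in Nfkb2-/- libraries. They then no longer overlapped, but 9939 CPM in WT replicate 2 was close to 9931 CPM in Nfkb2-/- replicate 1. Ccl22 made up most of each of the sums without Ccl17, with 7787, 5890.3 and 10728 CPM in WT and 6072, 5826 and 5357 CPM in Nfkb2-/- libraries. Tnfrsf1a, Tnfrsf12a, Tnfrsf14 and Ltbr, 40% of the receptors, were lowest among WT libraries in replicate 3, which is near the 37.3% of those genes. So were 10 of 10 macrophage and monocyte markers. The summed level of these 10 markers was 823.5, 954.3 and 132.8 CPM in WT and 590.2, 591.5 and 708.6 CPM in Nfkb2-/- libraries, and neither edgeR nor DESeq2 called any of them. The part of dendritic cell maturation or macrophage content in the receptor differences was not tested.

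**Figure D4:**
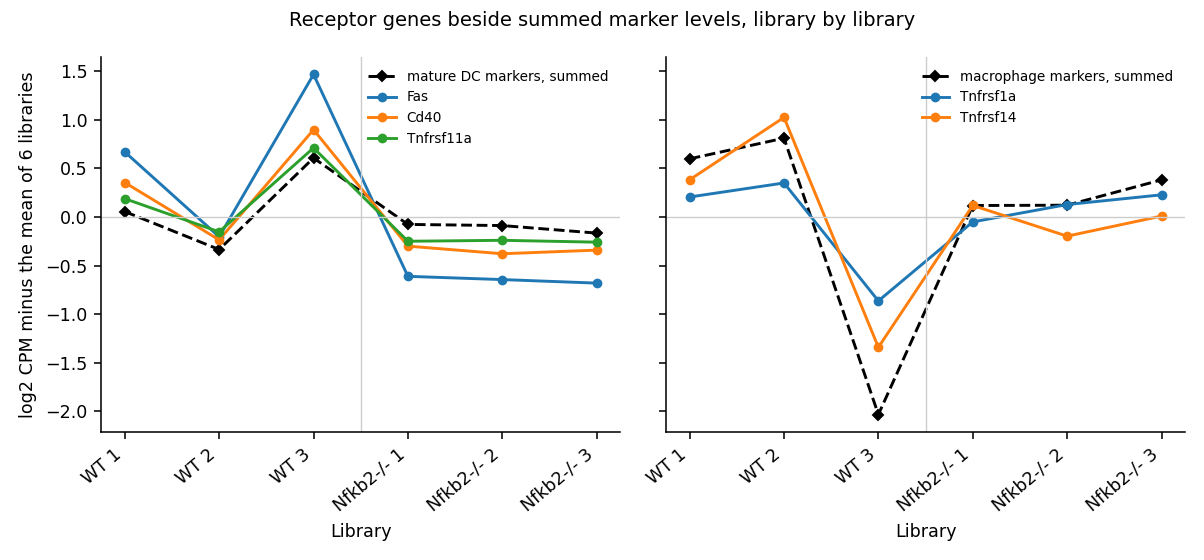
Log2 CPM of receptor genes and of summed marker lists in each library, centred on the mean of the 6 libraries; the receptors were chosen for the plot after their values were seen. On the left Fas, Cd40 and Tnfrsf11a peak in WT replicate 3 with the mature dendritic cell (DC) markers, and on the right Tnfrsf1a and Tnfrsf14 dip there with the macrophage markers. Of the 10 receptors, 40% were lowest among WT libraries in replicate 3, near the 37.3% of genes averaging 5 CPM or more.

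Among the ligands of the family, listed together with Btla and Cd160, which bind HVEM, more genes were higher than lower in Nfkb2-/- BMDCs. Of 20 listed, 17 were tested, and Cd40lg, Tnfsf11 and Fasl were under the filter. edgeR called 2 higher and 1 lower of the 17, where it called 0.453% and 0.682% of all genes, and DESeq2 called 6 higher and 2 lower, where it called 4.33% and 4.32%. The median log2 fold change over the 17 was 0.78, against 0.08 over all genes. The genotypes did not overlap in 8 of the 17 with higher levels in Nfkb2-/- BMDCs and in 3 (Tnfsf4, Cd160 and Cd70) with lower levels, where 12.7% and 12% of all genes showed this. The fold changes of granulocyte markers ran in both directions, but all markers with lower means in Nfkb2-/- BMDCs overlapped between the genotypes. Of 10 such markers 9 were tested, 3 with a log2 fold change above 0 and 6 below, and a median of -0.24. Without overlap, 2 were higher (Cxcr2 and Siglecf) and 0 lower, where 12.7% and 12% of all genes showed this. edgeR called none, with 4 at an unadjusted p under 0.05, against 17.1% of all genes. DESeq2 called Cxcr2 and Siglecf higher and Ltf lower, which are named after their values were seen. Ltf measured 15.2, 22.5 and 3.89 CPM in WT and 4.84, 5.37 and 3.57 CPM in Nfkb2-/- BMDCs, with overlap. Mmp8, also named after its values were seen, averaged 110 CPM in WT and 43.1 CPM in Nfkb2-/- BMDCs, with overlap. Siglecf, a marker of eosinophils, measured 15.8, 48.2 and 6.13 CPM in WT and 66.3, 83.95 and 76.7 CPM in Nfkb2-/- BMDCs. Cxcr2, a chemokine receptor of neutrophils, measured 4.41, 11.97 and 1.31 CPM in WT and 93.1, 91.5 and 65.1 CPM in Nfkb2-/- BMDCs. The summed level of the 10 markers overlapped, at 217.2, 400.7 and 94.57 CPM in WT and 292, 316.3 and 312.7 CPM in Nfkb2-/- libraries, and the part of granulocytes in the ligand differences was not tested.

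Ltb, which encodes lymphotoxin β, a ligand subunit of the lymphotoxin β receptor, measured 0.878, 1.35 and 0.688 CPM in WT and 4.61, 4.58 and 4.77 CPM in Nfkb2-/- BMDCs. It rose in Nfkb2-/- BMDCs from a low level (log2 fold change 2.25, standard error 0.31, edgeR adjusted p = 0.0332). Tnfsf18, the gene for GITR ligand, rose from 0.830, 0.585 and 1.45 CPM in WT to 3.90, 6.76 and 4.34 CPM in Nfkb2-/- libraries, a log2 fold change of 2.39 (standard error 0.41, edgeR adjusted p = 0.0489). Cd160, which encodes a binding partner of HVEM, fell from 21.7, 21.9 and 19.5 CPM to 11.4, 8.998 and 7.78 CPM, a log2 fold change of -1.16 (standard error 0.19, edgeR adjusted p = 0.0444). The call of Tnfsf18 was lost under RLE scaling (edgeR adjusted p = 0.0504, range over the alternatives 5.44e-07 to 0.225), and that of Cd160 without TMM (edgeR adjusted p = 0.104, range 3.89e-06 to 0.217). All 3 calls were lost with the replicate number as a block and without WT replicate 1 or any one Nfkb2-/- replicate, fits in which edgeR called 0 of all genes, with 2325 to 4088 at an unadjusted p under 0.05.

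Among the ligands with the highest level per kb were Tnfsf4, Tnfsf8, Tnfsf12 and Tnf. Tnfsf4, which encodes OX40 ligand, measured 139, 117 and 197 CPM in WT and 53.7, 90.4 and 77.2 CPM in Nfkb2-/- BMDCs, with no overlap (log2 fold change -1.03, standard error 0.26, edgeR adjusted p = 0.115). Tnf, the ligand of TNFR1 and TNFR2, measured 7.14, 12.95 and 2.13 CPM in WT and 28.1, 26.9 and 28.7 CPM in Nfkb2-/- BMDCs. Every Nfkb2-/- library was higher, and the WT values differed widely (log2 fold change 1.91, standard error 0.55, edgeR adjusted p = 0.143). Tnfsf8, the gene for CD30 ligand, measured 15.2, 49.1 and 4.92 CPM in WT and 67.9, 100.5 and 103 CPM in Nfkb2-/- BMDCs, again without overlap (log2 fold change 1.97, edgeR adjusted p = 0.222). DESeq2 called Tnfsf4 lower and Tnf and Tnfsf8 higher. Tnfsf12, the gene for TWEAK, overlapped at 21.7, 18.3 and 13.1 CPM in WT and 23.3, 19.6 and 17.2 CPM in Nfkb2-/- BMDCs. The largest fold changes among the ligands and binding partners were those of Lta and Btla, which are named here after their values were seen. Lta, which encodes lymphotoxin α, was at 0, 0.492 and 0.241 CPM in WT and 4.08, 4.35 and 4.49 CPM in Nfkb2-/- BMDCs (log2 fold change 4.17, edgeR adjusted p = 0.0746), and Btla at 1.16, 3.20 and 0.757 CPM and 7.53, 12.5 and 16.6 CPM (log2 fold change 2.84, edgeR adjusted p = 0.0652).

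**Figure D5:**
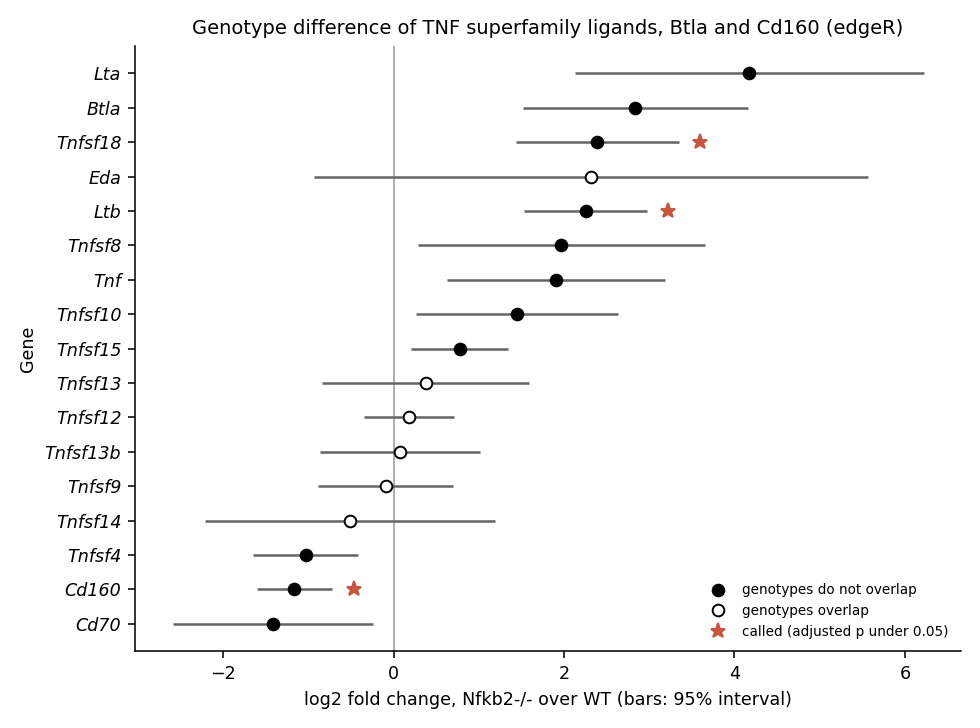
Log2 fold change (Nfkb2-/- over WT) of 17 ligand and binding partner genes from edgeR with 95% intervals, filled where the genotypes do not overlap and starred where called. The called genes are Tnfsf18 at 2.39, Ltb at 2.25 and Cd160 at -1.16.

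Of 18 other receptors of the family, 17 were tested (Tnfrsf17 was under the filter) and none was called by edgeR. Unadjusted edgeR p-values under 0.05 were obtained for 3 of them, where 17.1% of all genes had one, and DESeq2 called 1, Tnfrsf13b, higher, where it called 4.33% of all genes higher. The median log2 fold change of the 17 was 0.34, with 12 above 0 and 5 below. Over all genes tested the median was 0.08, and 12179 of 21849 were above 0. Some of the 12 rested on 1 library at low counts. Tnfrsf19, Tnfrsf25, Ngfr and Edar had 36, 33, 48 and 45 counts in Nfkb2-/- replicate 1, and at most 12 in any other library. Tnfrsf13b, the gene for TACI, a receptor of BAFF and APRIL, measured 30.9, 52.4 and 18.2 CPM in WT and 71.99, 78.3 and 80.7 CPM in Nfkb2-/- BMDCs, without overlap (log2 fold change 1.19, standard error 0.35, edgeR adjusted p = 0.151). The other receptors with the highest level per kb were Relt, Tnfrsf21 and Tnfrsf18. Tnfrsf18, the gene for GITR, measured 5.98, 6.74 and 9.53 CPM in WT and 10.8, 11.04 and 11.8 CPM in Nfkb2-/- BMDCs (log2 fold change 0.60, edgeR adjusted p = 0.217). Relt overlapped, with 47.9, 43.7 and 78.3 CPM in WT and 53.1, 50.4 and 49.6 CPM in Nfkb2-/- BMDCs. Tnfrsf21, which encodes the death receptor DR6, was at 39.6, 55.1 and 8.53 CPM in WT and 28.2, 32.4 and 31.2 CPM in Nfkb2-/- BMDCs, with its lowest value in WT replicate 3.

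Downstream of the receptors, differences ran lower more often than higher. Of 21 adaptors, ubiquitin ligases and kinases, edgeR called none, with 5 at an unadjusted p under 0.05 against 17.1% of all genes, and DESeq2 called 3 lower (Traf1 and Traf3ip2, named after their values were seen, and Traf6), against 4.32% of all genes. The median log2 fold change was -0.13, with 15 of 21 below 0, where 9670 of the 21849 genes tested were below 0. Traf6, which acts downstream of CD40 and RANK, measured 435, 395 and 487 CPM in WT and 315, 319.7 and 304 CPM in Nfkb2-/- BMDCs, a log2 fold change of -0.49 (SE 0.15, edgeR adjusted p = 0.161). Tab2, a subunit of the TAK1 kinase complex and the most abundant of the list per kb, was close to equal, at 424, 397 and 396 CPM in WT and 388, 412 and 429.6 CPM in Nfkb2-/- BMDCs. Birc3, which encodes cIAP2, measured 281, 189.6 and 385 CPM in WT and 205, 203 and 213 CPM in Nfkb2-/- BMDCs, and Tank, a TRAF-binding protein, 398, 318 and 489 CPM and 212, 305 and 339 CPM, both with overlap.

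Of 13 genes of death domain signaling, edgeR called none, with 3 at an unadjusted p under 0.05 (17.1% of all genes), and DESeq2 called 1 (8.65% of all genes). The median log2 fold change was -0.08. Casp8, the initiator caspase recruited by Fas, was at 86.3, 105 and 89.1 CPM in WT and 121, 113 and 116 CPM in Nfkb2-/- BMDCs (log2 fold change 0.32, edgeR adjusted p = 0.301). Nsmaf, a TNFR1-binding protein, measured 211, 221 and 219.8 CPM in WT and 177, 187 and 183 CPM in Nfkb2-/- BMDCs, and Faf1, a Fas-binding protein, 119, 111 and 178 CPM and 76.3, 104 and 100.1 CPM, both without overlap and uncalled by either tool.

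Of 12 NF-κB subunits and inhibitors, edgeR called Nfkb2 alone, while 7 had an unadjusted p under 0.05, against 17.1% of all genes, and DESeq2 called 4 lower (Nfkb2, Rel, Nfkbia and Nfkbib, the last named after its values were seen), against 4.32% of all genes. The median log2 fold change was -0.61, and 7 of the 12 had every Nfkb2-/- library below every WT library, as did 12% of all genes. Nfkbia, which encodes the canonical inhibitor IκBα, measured 279, 265 and 501 CPM in WT and 172, 175 and 172 CPM in Nfkb2-/- BMDCs, a log2 fold change of -1.01 (SE 0.26, edgeR adjusted p = 0.117). Rel, which encodes the subunit c-Rel, measured 2089.9, 1720.2 and 2394 CPM in WT and 1466, 1426 and 1345 CPM in Nfkb2-/- BMDCs (log2 fold change -0.55, edgeR adjusted p = 0.203). Relb, the usual partner of p52, overlapped at 201, 119 and 260.2 CPM in WT and 139.6, 106 and 119 CPM in Nfkb2-/- BMDCs, and so did Nfkb1, at 346, 383 and 582 CPM and 504, 450.1 and 423 CPM.

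The 4 genes tied to shedding of receptor ectodomains (Adam10, Adam17, Rhbdf2 and Timp3) had overlapping levels, and neither edgeR nor DESeq2 called any, with 0 at an unadjusted edgeR p under 0.05 and 1 by DESeq2. Adam17, the sheddase of TNF and its receptors, measured 101, 113 and 98.3 CPM in WT and 83.5, 115 and 106 CPM in Nfkb2-/- BMDCs. Timp3, an inhibitor of ADAM17, measured 43.4, 25.7 and 38.1 CPM in WT and 22.1, 24.5 and 28.2 CPM in Nfkb2-/- BMDCs (log2 fold change -0.52, edgeR adjusted p = 0.295).

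For the 3 receptors called by DESeq2, the genes with the most similar profile over the 6 libraries were listed among 10645 candidates averaging 5 CPM or more, by the root mean square (RMS) difference of log2 CPM centred on each gene's mean. Nearest to Tnfrsf1b were Diras2 (RMS difference 0.0531), Stom (0.0805), Apobec1 (0.0852) and Bend4 (0.0984). Each of these was called lower in Nfkb2-/- BMDCs by edgeR, with log2 fold changes from -1.19 to -1.08. As they were chosen for a profile close to that of Tnfrsf1b in the same libraries, such fold changes follow from the choice. They add no evidence to the test of Tnfrsf1b. Nearest to Tnfrsf9 were Nectin2 (RMS difference 0.0896), Ank2 (0.0967), Herpud1 (0.109) and Slc7a7 (0.132), and nearest to Fas were Hmgn3 (0.092), Thap12 (0.107), Arl5c (0.127) and Mylip (0.131), none of them called.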

How the data were processed

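Reads of 6 libraries, 3 per genotype by the labels, were counted by the authors on Ensembl genes and deposited as raw counts without normalization. The submitters' processing notes name HISAT2 and GRCm38 (mm10), while the counting tool, annotation and use of strand are not given in the sources used here. Genes needed a sum of 50 counts in the 6 libraries and a GENCODE M21 name, which 4675 IDs lacked (1.01% to 1.75% of a library's counts, left out of library sizes). Analyses used R 4.3.3, edgeR 4.0.16 (TMM, glmQLFit and glmQLFTest, no covariates, common dispersion 0.219), DESeq2 1.42.0 and limma 3.58.1, and were tested on simulated data. Called genes had a Benjamini-Hochberg adjusted p-value under 0.05 over all genes tested and a fold change over 1.2. The standard error is the log2 fold change divided by the square root of F. Exonic lengths are unions over transcripts.

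The receptors and the other lists were chosen with earlier results of these data known. Named from each list were called genes and the 4 with the highest level per kb. Similar genes were sought for receptors that edgeR or DESeq2 called. The alternatives, 14 in number, are DESeq2, limma voom, 2 other scalings, 3 other filters, the replicate number as a block and each library left out. The separation of the genotypes under other scalings and with libraries left out, and the mature dendritic cell markers without Ccl17, were chosen after seeing the data. The table joining the 6 libraries was not used. A listed gene of death domain signaling is not reported here. Intervals of counting error cover counting only.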

Additional observations from a re-analysis of the deposited data

How the results depend on the processing

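Of the 140 log2 fold changes of single receptors under alternatives, 126 kept their direction and their side of the threshold, 12 kept their direction and passed it, and 2 turned direction, which were those of Tnfrsf14 (0.21 without WT replicate 2, range -0.75 to 0.21 over the libraries left out) and Tnfrsf1a (-0.17 without WT replicate 3, range -0.17 to 0.34). The ratio of Tnfrsf14 to Ltbr also turned, to -0.40 on the log2 scale without WT replicate 3, and ranged from -0.40 to 0.72 over the libraries left out. The calls depended on the tool. Against 248 genes and 0 of the 10 receptors called by edgeR, DESeq2 called 1890 genes and 3 receptors, with 1 other receptor, 8 ligands or partners, 3 adaptors, 1 death domain gene and 4 NF-κB genes. limma voom called 488 genes and 1 receptor. With filterByExpr there were 397 genes and 1 receptor, with at least 10 counts in every library 459 genes and 1 receptor, and with no filter 1625 genes, 2 receptors, 1 other receptor, 9 ligands or partners, 1 adaptor and 3 NF-κB genes. RLE and total counts without TMM moved no total of calls by more than 1.5 times, but each ended 1 of the 3 ligand and partner calls, Tnfsf18 under RLE and Cd160 without TMM. Without TMM the receptors separated downward were 2 in place of 5, where the share of all genes was 8.77% in place of 12%. With libraries left out, the genes called ranged from 0 to 1248, the receptors from 0 to 3, other receptors, adaptors and death domain genes from 0 to 1, ligands or partners from 0 to 7 and NF-κB genes from 0 to 3. The receptors separated upward ranged from 1 to 2 (Tnfrsf12a joined without WT replicate 1 or Nfkb2-/- replicate 2), against 15.3% to 21.3% of all genes. Those separated downward ranged from 5 to 6 (Tnfrsf14 joined without WT replicate 3), against 14.1% to 21.7% of all genes. The highest counts of calls came without WT replicate 2. The cause was not tested.

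Whether replicate numbers paired the samples was not settled. The correlations of same-numbered libraries' deviations were 0.262, 0.148 and 0.0224 for numbers 1, 2 and 3. Those of other pairs ran from -0.237 to 0.164, the latter for WT replicate 2 with Nfkb2-/- replicate 3. Deviations from a group mean sum to 0 within a genotype, so these values constrain each other and cannot decide the question. With the replicate number as a block, edgeR called 0 genes (3331 at an unadjusted p under 0.05), 0 ligands or partners and 0 NF-κB genes. Depth was lowest for Tnfrsf12a and Tnfrsf14, read at 18 to 62 and 39 to 225 counts per library, where counting error was 12.7% to 23.6% and 6.67% to 16% of the value, against a coefficient of variation of Tnfrsf14 of 66% in WT.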
